A study of Mus musculus with 66 samples.

Results

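The comparison described here sets 7 libraries of hippocampus from mice injected with Alzheimer's disease brain extract (AD) against 7 libraries from mice injected with control brain extract (Ctrl), in the cohort labelled 12 months old and collected 5 months post injection (mpi). These 14 of the 66 libraries of the series were chosen by their labels alone. All mice were C57BL/6, a common inbred strain, and the labels name no transgene or other treatment. Dose, route and number of donors of the extract are not stated there, nor is whether the age is that at injection or at collection. Separate animals are not stated either, so p-values here reflect only how these libraries vary, which may be technical. The libraries hold poly(A) RNA of hippocampus tissue, in which fewer cells of a type and less RNA per cell cannot be told apart. The same table holds earlier libraries, of 1 mpi (6 AD, 5 Ctrl) and of 3 mpi (6 AD, 6 Ctrl), and a second table holds the cohort labelled 3 months old, with 3 AD and 5 Ctrl libraries at 5 mpi.

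The series concerns seeded tauopathy, in which misfolded tau in an injected extract templates the misfolding of the host's tau. Such tau appears in connected brain regions over months, and microglia and astrocytes around the deposits can take on reactive states. A second kind of gene matters for these libraries. A processed pseudogene is a copy of a messenger RNA that was reverse transcribed and inserted elsewhere in the genome, so it lacks introns and often stays almost identical to the gene it came from. Short reads that lie in an identical stretch cannot be placed on one copy or the other, and the level recorded for a pseudogene then depends on how a counting method treats them.

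Depth was 43591563 to 58676053 reads per AD library and 45976112 to 50501648 per Ctrl library. Values are the deposited RPM (reads scaled to library size and divided by 1 factor per library), and differences are given as log2 fold changes of AD over Ctrl on log2(value + 1), a scale that understates the change of genes with low values. In each group 4 libraries had high Xist, the RNA that coats the inactive X chromosome, and 3 had high Y-linked genes. Trace reads of the opposite kind differed between the groups. The 4 high-Xist libraries held 0 to 13 reads of Y-linked genes in AD and 15 to 66 in Ctrl. Among the high-Y libraries Xist had 1, 3 and 492 reads in AD, the last in AD library 6, and 114 to 148 in Ctrl. The labels do not say which libraries were prepared or sequenced together.

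After AD extract, 11 of 20084 genes tested rose (percent of genes called higher 0.0548) and 0 fell (limma, Benjamini-Hochberg adjusted p under 0.05). Of these, 10 are annotated as processed pseudogenes, and the remaining one, Gm11808, is a single-exon gene model annotated as protein-coding. At an unadjusted p under 0.05 there were 1705 genes (8.49%), of which 864 were higher (4.30%) and 841 lower (4.19%). The count rests on a spread shared over all 37 libraries of the table: with only the 14 libraries in the fit limma called 0 genes, 1655 had an unadjusted p under 0.05 and the smallest adjusted p was 0.279. On recovered reads over the 37 libraries, edgeR's quasi-likelihood test called 13 genes and DESeq2 27 higher and 1 lower. Among protein-coding genes alone limma called 0, with 1215 at an unadjusted p under 0.05. Without AD library 6 the count was 23. It was 6 without AD library 2, AD library 5 or Ctrl library 4, and 7 without AD library 1, AD library 4 or Ctrl library 3.

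The pseudogenes match genes for translation (Eef1a1, the elongation factor that brings aminoacyl-tRNA to the ribosome, and the ribosomal proteins Rpl14 and Rpl34), ubiquitin (Ubb, a polyubiquitin gene), an unfoldase (Vcp, which extracts ubiquitinated proteins for degradation), the cytoskeleton (Actg1, gamma-actin), mitochondria (Apoo, of the inner membrane organizing complex, and Hadhb, a subunit of the trifunctional protein of fatty acid oxidation), Raf kinase inhibition (Pebp1) and chromatin (Morf4l1). Identity between each called pseudogene and its best protein-coding match ran from 96.76% for Gm13456 and Eef1a1 to 100% for Apoo-ps and Apoo. The longest stretch without a mismatch ran from 185 bases in Rpl34-ps1 to 857 bases in Gm12715. The 9 pseudogenes of a single exon match genes of 4 to 17 exons, and Gm1821, the transcribed one, has 2 exons, as has Ubb.

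Because the calls concern copies, 4 pairs are printed here over 120 coding bases of the matching gene, 5′ to 3′ on the transcribed strand, at the ungapped stretch where the pair differs most, from the GENCODE vM21 transcripts on GRCm38. Capitals mark the positions at which the members of a pair differ, 4 in the Gm13456 pair, 3 each in the Vcp-rs and Gm12715 pairs and 2 in the Rpl14-ps1 pair. The Gm13456 stretch lies at chr2:40556559-40556678 on the plus strand, that of Vcp-rs at chrX:104346696-104346815 on the minus strand, that of Gm12715 at chr4:103564146-103564265 on the plus strand and that of Rpl14-ps1 at chr7:45325268-45325387 on the plus strand. The Eef1a1 stretch is 1 block at chr9:78479355-78479474 on the minus strand, while introns interrupt those of Vcp (chr4:42983520-42984366, minus), Actg1 (chr11:120346757-120346968, minus) and Rpl14 (chr9:120573767-120574163, plus).
Gm13456: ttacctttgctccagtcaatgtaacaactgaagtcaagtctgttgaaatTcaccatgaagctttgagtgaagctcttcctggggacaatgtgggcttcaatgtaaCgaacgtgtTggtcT
Eef1a1: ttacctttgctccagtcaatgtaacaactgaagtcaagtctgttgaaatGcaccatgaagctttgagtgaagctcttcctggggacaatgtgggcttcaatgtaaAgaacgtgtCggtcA
Vcp-rs: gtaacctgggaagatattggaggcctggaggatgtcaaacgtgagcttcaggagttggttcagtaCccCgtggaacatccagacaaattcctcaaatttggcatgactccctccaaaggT
Vcp: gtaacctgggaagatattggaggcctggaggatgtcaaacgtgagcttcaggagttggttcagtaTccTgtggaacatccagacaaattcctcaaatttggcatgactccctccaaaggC
Gm12715: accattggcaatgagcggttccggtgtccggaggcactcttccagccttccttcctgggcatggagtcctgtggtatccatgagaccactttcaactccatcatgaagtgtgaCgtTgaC
Actg1: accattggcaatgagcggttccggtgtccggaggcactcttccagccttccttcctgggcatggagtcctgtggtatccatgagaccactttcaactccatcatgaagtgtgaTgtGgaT
Rpl14-ps1: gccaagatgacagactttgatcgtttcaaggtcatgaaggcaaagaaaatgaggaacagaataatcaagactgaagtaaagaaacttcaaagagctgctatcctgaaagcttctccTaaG
Rpl14: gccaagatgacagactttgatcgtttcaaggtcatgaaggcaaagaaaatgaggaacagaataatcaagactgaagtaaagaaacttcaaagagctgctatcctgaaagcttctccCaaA

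Apoo-ps and Apoo had no differing base over 586 aligned bases, so 1 line shows the first 120 coding bases of Apoo and the same letters in Apoo-ps. They lie at chr13:107414516-107414635 on the minus strand in Apoo-ps and, across an intron, at chrX:94380019-94382215 on the plus strand in Apoo.
Apoo-ps: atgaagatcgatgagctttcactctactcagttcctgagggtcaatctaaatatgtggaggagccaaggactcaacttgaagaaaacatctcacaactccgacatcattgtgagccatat

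Gm13456, on chromosome 2 at 40555752 to 40557116, had the smallest adjusted p. Its value was 6.71, 9.98 and 10.7 (lowest, median and highest) in AD and 4.63, 5.78 and 6.30 in Ctrl libraries, from 302 to 511 reads per AD library and 217 to 289 per Ctrl library. Every AD library lay above every Ctrl library. The log2 fold change was 0.58 (SE 0.086, limma adjusted p = 0.00167). Eef1a1 itself, at 2579 to 2752 in AD and 2444 to 2860 in Ctrl, overlapped fully, with a log2 fold change of 0.02 (SE 0.042, adjusted p = 0.906). Set per 1000 reads of Eef1a1, Gm13456 had a median of 3.71 reads in AD and 2.19 in Ctrl.

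Among the called genes Gm1821 was the most abundant and Gm11808 had the largest log2 fold change. Gm1821, the copy of Ubb on chromosome 14 at 46084028 to 46085000, had values of 24.97, 29.36 and 33.35 in AD and 19.19, 21.70 and 24.89 in Ctrl. The groups nearly touched without overlapping, and the log2 fold change was 0.38 (SE 0.061, adjusted p = 0.00324). Ubb stood at 632 to 772 in AD and 702 to 809 in Ctrl (-0.12, SE 0.048, adjusted p = 0.507). Gm11808, on chromosome 4 at 3973092 to 3973595, had 1.53, 4.10 and 5.15 in AD and 1.27, 1.38 and 1.68 in Ctrl (0.74, SE 0.152, adjusted p = 0.0424). Its 3 high-Y AD libraries, at 1.53 to 1.95, reached into the Ctrl range, and its 4 high-Xist AD libraries, at 4.10 to 5.15, lay far above it.

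Vcp-rs, on the X chromosome at 104345829 to 104348234, matches Vcp, a gene whose mutations cause inherited disease with protein aggregates. It had 2.87, 4.59 and 5.51 in AD and 2.20, 2.63 and 2.80 in Ctrl, with no overlap (0.52, SE 0.092, adjusted p = 0.00689). Vcp had 352 to 369 in AD and 351 to 402 in Ctrl (-0.05, SE 0.030, adjusted p = 0.651), and 0 of 24 genes of VCP and its cofactors passed. Per 1000 reads of Vcp, Vcp-rs had a median of 12.5 reads in AD and 6.79 in Ctrl.

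Among ribosomal protein copies, Rpl34-ps1 (chromosome 6, 71124610 to 71124963) had 0.530, 1.10 and 1.31 in AD and 0.329, 0.463 and 0.516 in Ctrl (0.44, SE 0.077, adjusted p = 0.00661). Rpl14-ps1 (chromosome 7, 45324965 to 45325617) had 1.62, 2.09 and 2.21 in AD and 1.12, 1.30 and 1.45 in Ctrl (0.40, SE 0.078, adjusted p = 0.0231). Neither overlapped between groups. In Rpl14-ps1 the high-Y AD libraries, at 1.62, 2.09 and 2.21, spanned the high-Xist ones, at 1.86 to 2.20. Rpl34 and Rpl14 gave log2 fold changes of 0.03 (SE 0.064) and -0.06 (SE 0.050), with adjusted p = 0.914 and 0.759.

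The remaining called genes are single-exon copies of metabolic, signalling and structural genes. Apoo-ps (chromosome 13, 107414144 to 107414729) had 0.510, 0.733 and 0.973 in AD and 0.261, 0.358 and 0.451 in Ctrl (0.37, SE 0.064, adjusted p = 0.00661). Gm10819, the Pebp1 copy (chromosome 19, 16267061 to 16267621), had 0.599, 1.06 and 1.18 in AD and 0.406, 0.502 and 0.571 in Ctrl (0.36, SE 0.068, adjusted p = 0.0131). Neither of these overlapped between groups. Gm12715, the Actg1 copy (chromosome 4, 103563402 to 103564529), had 3.71, 5.59 and 6.92 in AD and 2.07, 3.14 and 3.80 in Ctrl (0.60, SE 0.105, adjusted p = 0.00661). Morf4l1-ps1 (chromosome 16, 24529394 to 24530362) had 2.22, 3.02 and 3.93 in AD and 1.59, 1.91 and 2.39 in Ctrl (0.42, SE 0.087, adjusted p = 0.0454). Gm13910, the Hadhb copy (chromosome 2, 108948806 to 108950233), had 0.767, 1.31 and 1.55 in AD and 0.522, 0.705 and 1.07 in Ctrl (0.39, SE 0.081, adjusted p = 0.0454). In these 3 the lowest AD libraries overlapped the highest Ctrl library.

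Of the 10 genes that the called pseudogenes match 0 passed, with log2 fold changes from -0.12 (Ubb) to 0.06 (Hadhb). All 7 AD libraries lay above the Ctrl mean in each of the 11 called genes. Such counts against the Ctrl mean, here and below, are no independent support, since the genes were picked by p in these same libraries. Over all genes tested, 24 had every AD library above every Ctrl library (0.119%) and 11 had every AD library below (0.0548%). Processed pseudogenes made up 17 of the 24 and 0 of the 11, and the 11 below were all annotated as protein-coding. Of the called genes, 7 are among the 24.

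The calls for Gm13456, Gm1821, Rpl34-ps1, Apoo-ps, Gm12715 and Vcp-rs held when any 1 of the 14 libraries was left out (highest adjusted p = 0.0395). Gm10819 lost its call without AD library 1, 2, 4 or 5 or Ctrl library 4 (adjusted p up to 0.0734), and Rpl14-ps1 without AD library 1, 2 or 5 or Ctrl library 1, 3, 4 or 6 (up to 0.0866). Gm11808 kept its call only without AD library 3, 6 or 7, Gm13910 only without AD library 3 or 7 or Ctrl library 7, and Morf4l1-ps1 only without AD library 3, 6 or 7 or Ctrl library 2. The adjusted p of these 3 otherwise reached 0.170, 0.170 and 0.191. Their log2 fold changes stayed positive in all 14 cases. They ran from 0.65 to 0.86 for Gm11808, from 0.35 to 0.44 for Gm13910 and from 0.37 to 0.47 for Morf4l1-ps1. Each of these fits kept the spread of the earlier libraries of the table, so none tests the dependence on that spread. With only the 14 libraries in the fit 0 genes passed. With a replicate block, which groups libraries of equal number, 1 gene passed (limma, smallest adjusted p = 0.0379). The labels give equal numbers no shared source.

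**Figure D1:**
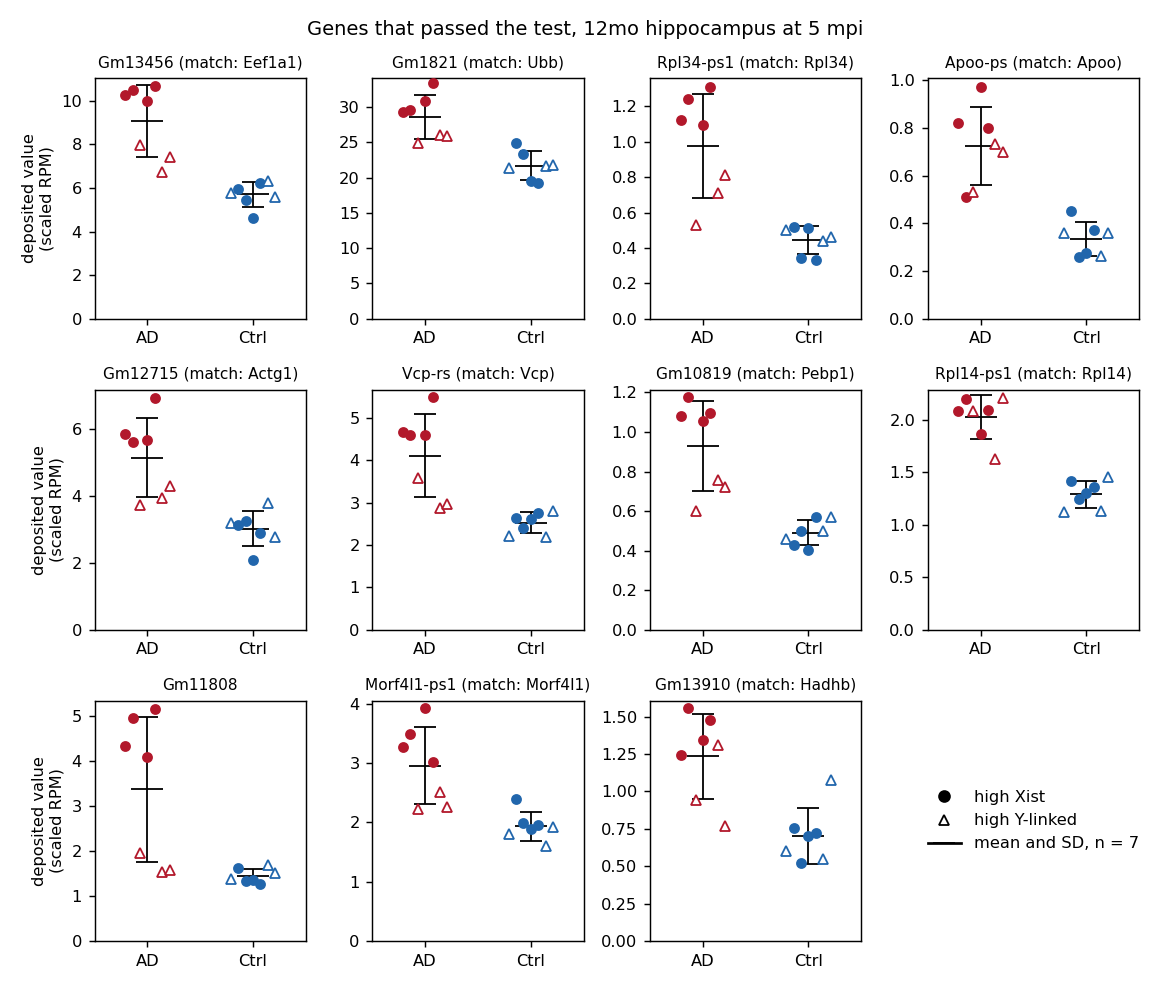
Deposited values (scaled RPM, linear axes from 0) of the 11 genes that passed, 1 point per library, AD left and Ctrl right, with circles for high-Xist and triangles for high-Y-linked libraries and bars for mean and SD (n = 7). In Gm11808 the 4 high-Xist AD libraries lie between 4.10 and 5.15 while every other library lies below 2, and in Rpl14-ps1 both kinds of AD library lie above Ctrl.

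Processed pseudogenes as a class shifted in the same direction. Of 723 tested, 537 (74.3%) were on the positive side and the median log2 fold change was 0.07, against 50.1% and 0.00 over all genes. Over processed pseudogenes of both kinds the median of 0.065 became 0 with no filter on low values and 0.032 in the high-Y libraries alone. The filter asks for enough reads in only as many libraries as the smallest group holds. Low pseudogenes may thus have passed only through AD libraries in which they were high. How far this raised the share, the median and the class values below was not tested. Of the 723, 157 were higher (21.7%) and 6 lower at an unadjusted p under 0.05. Transcribed processed pseudogenes gave a median of 0.07 over 82 genes, with 18 higher (22.0%) and 1 lower. The 64 unprocessed pseudogenes, annotated as a separate type, had a median of 0.03, and the 922 lincRNAs 0.01. These and other non-coding types also leaned to higher values, though less. At an unadjusted p under 0.05, 7.81% of the unprocessed pseudogenes were higher and 3.12% lower. For lincRNAs these shares were 5.97% and 3.15%. The 554 genes annotated as TEC were positive in 63.7%, with 9.57% higher and 1.44% lower, and 806 antisense genes were positive in 57.4%. Protein-coding genes had a median of -0.01 over 15667 genes, with 471 higher (3.01%) and 741 lower (4.73%). The 469 distinct genes that the processed pseudogenes match, as a list, had a median of -0.05 with 0 called.

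The mean of log2(value + 1) over all 805 processed pseudogenes of both kinds was 0.701, 0.697, 0.636, 0.695, 0.706, 0.612 and 0.638 in AD libraries 1 to 7, and 0.598, 0.60, 0.581, 0.578, 0.591, 0.594 and 0.591 in Ctrl libraries 1 to 7. AD and Ctrl did not overlap, and the 4 high-Xist AD libraries (1, 2, 4 and 5) stood above the 3 high-Y ones. The same mean without the called genes ran from 0.596 to 0.687 in AD and from 0.566 to 0.586 in Ctrl. Earlier groups overlapped. At 1 mpi the mean was 0.628 to 0.679 in AD and 0.630 to 0.634 in Ctrl, and at 3 mpi it was 0.579 to 0.644 in AD and 0.586 to 0.627 in Ctrl. The Ctrl libraries of 5 mpi thus lay below every library of 1 mpi. In the table of the 3mo cohort the groups of 5 mpi also overlapped, at 0.678 to 0.703 in AD and 0.668 to 0.724 in Ctrl. The share of all reads on processed pseudogenes was 0.0702% to 0.0843% in AD and 0.0648% to 0.0695% in Ctrl libraries of 5 mpi. Reads of mitochondrially encoded genes made up 5.02% to 6.33% in AD and 5.14% to 5.71% in Ctrl. In the high-Xist libraries this share did not overlap, at 5.75% to 6.33% in AD and 5.48% to 5.71% in Ctrl. In the high-Y libraries it did, at 5.02% to 5.74% in AD and 5.14% to 5.59% in Ctrl. Of 13 mitochondrially encoded genes 11 were positive (median log2 fold change 0.07) and 0 were called. The mean log2 level of protein-coding genes was 4.152 to 4.221 in AD and 4.157 to 4.201 in Ctrl. The part of these library differences, of the trace Xist and Y-linked reads, or of a sequencing run in the pseudogene shift was not tested.

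**Figure D2:**
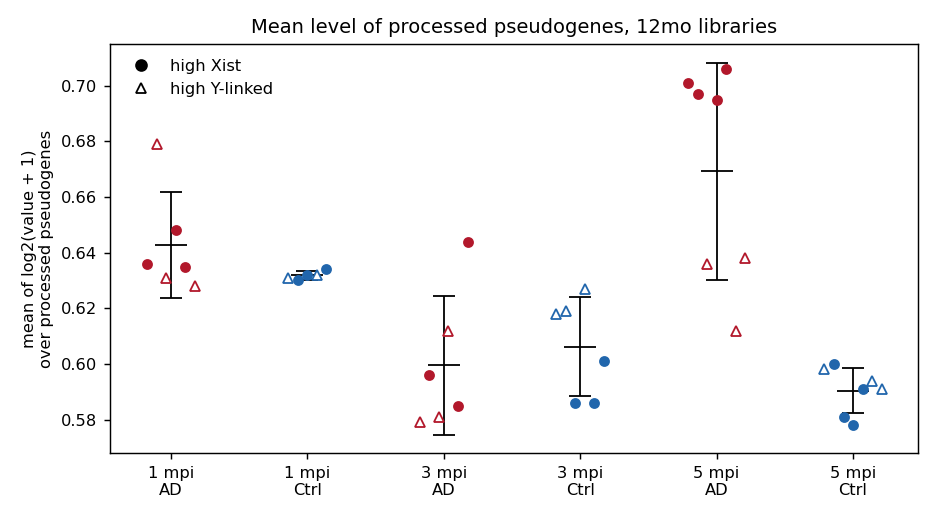
Mean of log2(value + 1) over 805 processed pseudogenes in each 12mo library, by time and extract, AD left of Ctrl at each time, with bars for mean and SD and circles and triangles for high-Xist and high-Y-linked libraries (the axis does not start at 0). At 5 mpi the 4 high-Xist AD libraries lie between 0.695 and 0.706, above every other library of the table, and all 7 AD libraries lie above the Ctrl range of 0.578 to 0.60.

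The shift was larger the closer a pseudogene was to its match. For the 108 processed pseudogenes with up to 90% identity to a protein-coding transcript the median log2 fold change was 0.01, close to that of all genes. It was 0.03 between 90% and 95%, 0.04 between 95% and 98%, 0.08 between 98% and 99%, 0.09 between 99% and 99.5% and 0.12 above 99.5%, where 154 of 173 were positive and 72 had an unadjusted p under 0.05 on the higher side. Across the 793 pseudogenes with a named match, Spearman's rho of log2 fold change with identity was 0.36, and with the level it was 0.38. This is a description, since pseudogenes share libraries and near-identical copies share reads. The matches of the closest bin had a median log2 fold change of -0.06. In the high-Xist libraries alone the medians ran from 0.03 in the lowest bin to 0.20 in the highest, and in the high-Y libraries alone from 0.00 to 0.04. For the closest bin the other contrasts, each from its own libraries, gave medians of -0.01 (1 mpi), -0.01 (3 mpi) and 0.02 (3mo cohort, 5 mpi).

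**Figure D3:**
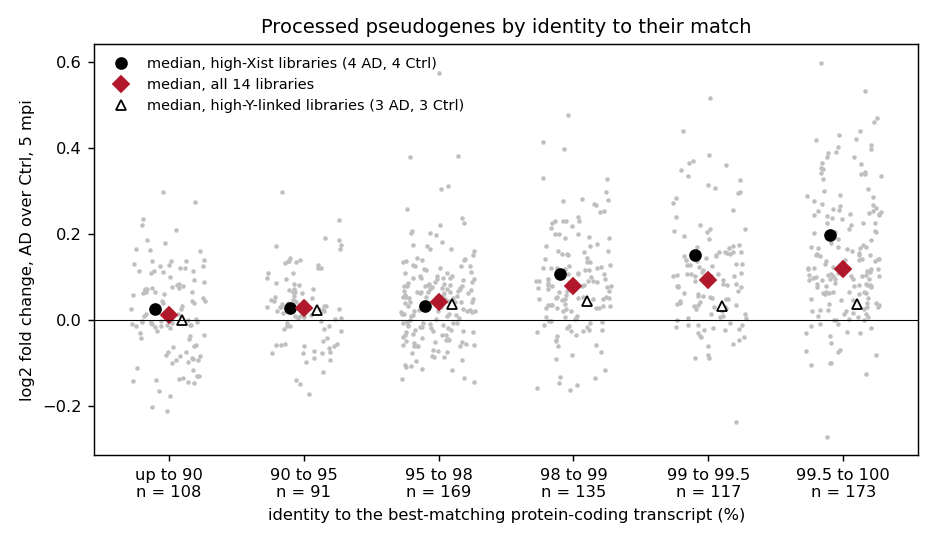
Log2 fold change (AD over Ctrl, 5 mpi) of 793 processed pseudogenes, grouped by percent identity to the best-matching protein-coding transcript, with 1 grey point per pseudogene and medians over all 14, the 8 high-Xist and the 6 high-Y-linked libraries. The median over all libraries goes from 0.01 in the lowest group to 0.12 in the highest, and the high-Xist medians lie highest from 98% identity up.

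Split by sex-linked expression, an analysis added after seeing the data, the difference was uneven. Each group was divided by Xist, and the spread behind every test of this split came from all 37 libraries of the table. No fit of either kind of library by itself was run. With 4 AD against 4 Ctrl high-Xist libraries, 76 genes were higher (0.378%) and 8 lower (0.0398%) by limma, among them all 11 called above, and 2135 had an unadjusted p under 0.05 (10.6%). Of the 76, 36 were processed pseudogenes (of 723 tested), 4 transcribed processed (of 82) and 8 unprocessed pseudogenes (of 64). Another 18 were protein-coding (of 15667). With 3 AD against 3 Ctrl high-Y libraries 0 genes passed and 808 had an unadjusted p under 0.05 (4.02%). All 11 genes had positive log2 fold changes there, from 0.09 for Gm11808 to 0.41 for Rpl14-ps1. In these libraries 50.6% of all genes and 62.2% of processed pseudogenes were positive. The 11 were picked from a fit that includes both kinds of library, so their values in either kind are no independent support. The difference between these AD effects was itself tested and passed for 10 genes (0.0498%, with 5.00% of genes at an unadjusted p under 0.05), all with a larger effect in high-Xist libraries. Gm11808 was the 1 called gene among them, at 1.24 in high-Xist and 0.09 in high-Y libraries (difference 1.15, SE 0.168, adjusted p = 0.000471). Trace reads of the opposite kind were fewer in AD than in Ctrl among both high-Xist and high-Y libraries, except in AD library 6 (492 Xist reads). Apart from that library, extract and this difference in trace reads cannot be told apart in these 14 libraries. The part of sex, or of other library differences, in the uneven effect was not tested.

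Whether the AD effect differed from that of earlier times was tested in the same fit. The effect at 5 mpi minus the mean effect at 1 and 3 mpi passed for 6 genes (0.0299%), all higher at 5 mpi and all among the 11. The difference was 0.66 for Gm13456 (SE 0.110) and 0.46 for Gm1821 (SE 0.077), both with adjusted p = 0.00778. It was 0.54 for Rpl34-ps1, 0.43 for Apoo-ps, 0.52 for Rpl14-ps1 and 0.69 for Gm12715 (adjusted p = 0.0191 to 0.0289). Against 1 mpi alone 1 gene passed (0.00498%), Gm1821, and against 3 mpi alone 1 gene (0.00498%), Gm13456. The count of 6 was 2 without AD library 1 or 5, 3 without Ctrl library 4 and 13 without AD library 6 or 7, and DESeq2 called 13 higher and 2 lower. The count of 1 against 1 mpi was 0 without AD library 1, 2, 4 or 5 or Ctrl library 1, 4, 5, 6 or 7, and 2 or 3 without AD library 3, 6 or 7. The count against 3 mpi was 2 without AD library 2, 3, 6 or 7. In the 3mo cohort at 5 mpi the 11 genes had log2 fold changes from -0.14 (Gm10819) to 0.18 (Morf4l1-ps1) in its own table. The test of 12mo minus 3mo effects over both tables called 0 of 21297 genes by limma, 1170 having an unadjusted p under 0.05 (5.49%), and DESeq2 called 8 higher and 2 lower.

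Outside pseudogenes and unnamed gene models, the leading genes did not pass. Cela1, a pancreatic-type elastase, had 1.40, 1.72 and 3.55 in AD and 0.5259, 0.988 and 2.03 in Ctrl (log2 fold change 0.53, SE 0.121, adjusted p = 0.0903). Every AD library lay above the Ctrl mean, but the ranges overlapped. Pcsk6, a convertase that cleaves secreted precursors, had 24.6, 29.3 and 32.7 in AD and 21.5, 23.2 and 26.0 in Ctrl (0.30, SE 0.073, adjusted p = 0.130). Sun2, a nuclear envelope protein of the link to the cytoskeleton, had 31.1, 37.5 and 46.8 in AD and 28.6, 30.9 and 34.7 in Ctrl (0.31, SE 0.075, adjusted p = 0.132). Cela1 passed without Ctrl library 6 (0.62) and Sun2 without AD library 1 (0.36), and DESeq2 called both, with Pcsk6 and Paqr6. Outside the leading genes DESeq2 also called the protein-coding B3gnt5 (1.295, DESeq2 adjusted p = 0.0245).

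Paqr6, of a family of membrane progestin receptors, and Nfkb1, a subunit of the inflammatory transcription factor NF-kB, did not overlap between groups. Paqr6 had 6.82, 7.94 and 8.79 in AD and 4.76, 5.42 and 6.69 in Ctrl (0.39, SE 0.096, adjusted p = 0.137). Nfkb1 had 21.4, 22.1 and 24.8 in AD and 17.5, 19.2 and 21.3 in Ctrl (0.22, SE 0.057, adjusted p = 0.202). The other positive leaders were Arl5c, Herc6, the mitochondrial ATP synthase subunit Atp5l, the clock-linked repressor Bhlhe41, Smyd4, and the lipid amide enzymes Naaa and Abhd4, with log2 fold changes of 0.19 to 0.48.

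On the negative side Mei4, needed for meiotic recombination in germ cells, was below in every AD library, at 0.744, 0.983 and 1.18 in AD and 1.20, 1.51 and 2.02 in Ctrl (-0.39, SE 0.093, adjusted p = 0.130). Snx25, a sorting nexin, had 53.7, 60.6 and 66.7 in AD and 63.7, 68.7 and 70.7 in Ctrl (-0.17, SE 0.043, adjusted p = 0.149). Nectin3, a cell adhesion molecule of synaptic junctions, had 40.5, 48.3 and 52.7 in AD and 50.5, 56.5 and 62.8 in Ctrl (-0.24, SE 0.059, adjusted p = 0.156). For these last 2 the ranges overlapped, with 7 of 7 AD libraries below the Ctrl mean. The others, among them the chromatin reader Ing2, the endoplasmic reticulum thioredoxin Txndc12 and Zfp2, had log2 fold changes of -0.25 to -0.14. Txndc12 and Zfp2 passed without AD library 7 (-0.22 and -0.23).

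**Figure D4:**
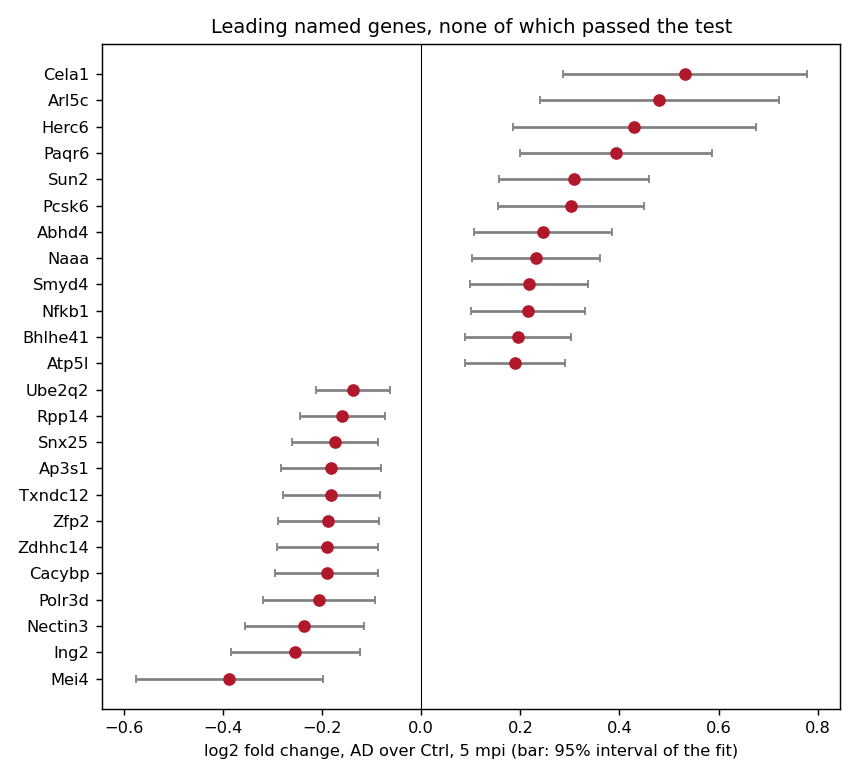
Log2 fold change (AD over Ctrl, 5 mpi) of the 12 positive and 12 negative named genes of smallest p that are neither pseudogenes nor gene models, with bars for the 95% interval of the fit. All intervals exclude 0 because the genes were picked for small p, and none of the 24 passed the adjustment over 20084 genes.

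Glial and immune lists leaned to higher values, with 0 members called in any. Of 29 genes of disease-associated microglia 26 were positive (median 0.16), with 6 higher and 1 lower at an unadjusted p under 0.05. Reactive astrocyte genes were positive in 26 of 30 (0.20), complement genes in 18 of 19 (0.17), interferon response genes in 31 of 33 (0.19), antigen presentation genes in 15 of 16 (0.16) and cytokine and NF-kB genes in 21 of 25 (0.13). Over all genes 50.1% were positive with a median of 0.00. Homeostatic microglia genes were positive in 14 of 16 (0.09). For disease-associated microglia the median was 0.35 in the 1 mpi contrast, 0.11 in that of 3 mpi and -0.16 in the 3mo cohort (5 mpi). For reactive astrocyte genes these medians were 0.27, 0.08 and -0.19.

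C3, the central complement component, had 6.50, 19.5 and 24.6 in AD and 6.09, 8.65 and 16.5 in Ctrl (0.84, SE 0.274, adjusted p = 0.376). AD libraries 1 and 7 lay within the Ctrl range and 5 AD libraries lay above it. C4b, another complement component, averaged 232 ± 58.5 in AD and 160 ± 25.2 in Ctrl (SD, n = 7 each; 0.51, SE 0.169, limma adjusted p = 0.399). Itgax, an integrin of activated microglia, had 1.17, 1.78 and 4.35 in AD and 0.640, 1.03 and 2.07 in Ctrl (0.60, SE 0.227, adjusted p = 0.468). The ranges of all 3 overlapped.

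Other members named by the same rule did not pass either. Tlr2 and Tlr4, receptors for microbial products, had 0.49 and 0.41, and the NF-kB subunit Nfkb2 0.33. The microglial lipid receptor Trem2 had 0.22, Cst7, a protease inhibitor of activated microglia, 0.44, and the lysosomal marker Cd68 0.34. Gfap, the astrocyte filament, had 0.21 and Serpina3n 0.29 (limma adjusted p = 0.358 to 0.583 for these 8). Apoe (0.11), Clec7a (0.37), Aif1 (0.08) and Tgm1 (0.14) had adjusted p = 0.701 to 0.867. By smallest p, Ggta1 (0.41), Steap4 (0.59), Serpina3n and Osmr (0.30) came first in the reactive astrocyte list, and Mx1, an antiviral GTPase, came first in the interferon list at 0.57.

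Markers of neighbouring tissue were also mostly positive. All 19 choroid plexus genes, from the epithelium that lines the ventricles, were positive (median 0.44), none with an unadjusted p under 0.05, and their summed value ranged over 523 to 10910 in AD and 369 to 7023 in Ctrl. Ttr, the defining choroid plexus transcript, averaged 2228 ± 2496 in AD and 1354 ± 1640 in Ctrl (SD, n = 7 each). Myelin and oligodendrocyte genes were positive in 17 of 21 (0.12), with sums of 5319 to 8721 in AD and 4740 to 7503 in Ctrl. Blood genes summed to 32.4 to 63.0 in AD and 16.5 to 80.5 in Ctrl. Retained nuclear and carry-over RNAs, such as Malat1 and Neat1, were positive in 5 of 6 (0.22). With a covariate for choroid plexus, myelin or these RNAs limma called 12, 8 and 11 genes, of which 10, 8 and 8 are among the 11. The part of these tissues in the glial lists was not tested.

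Neuronal and proteostasis lists leaned to lower values, again with 0 called. Protein-coding genes as a whole were positive in 47% (median -0.01), with 4.73% lower and 3.01% higher at an unadjusted p under 0.05. The 469 genes that processed pseudogenes match had a median of -0.05, near those of the proteasome and unfolded protein response lists below. For lists with such small medians the lean is thus not particular to the list. Immediate early genes, induced within minutes of neuronal activity, were negative in 19 of 22 (median -0.25), with 6 lower and 0 higher at an unadjusted p under 0.05. Nr4a3 had 86.3, 107 and 117 in AD and 111, 123 and 152 in Ctrl (-0.32, SE 0.111, adjusted p = 0.427). Nr4a2, also an orphan nuclear receptor, had 53.6, 66.7 and 70.5 in AD and 68.5, 83.4 and 91.8 in Ctrl (-0.34, SE 0.120, adjusted p = 0.433). Homer1, a postsynaptic scaffold with an activity-induced short form, had 137, 155 and 198 in AD and 176, 206 and 229 in Ctrl (-0.34, SE 0.128, adjusted p = 0.467). All 7 AD libraries were below the Ctrl mean in these 3 genes, with overlapping ranges. Dusp6, a phosphatase that ends MAP kinase signals, had -0.26. In the other contrasts the list's median was -0.05 (1 mpi), 0.06 (3 mpi) and -0.08 (3mo cohort, 5 mpi).

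Synapse genes were negative in 31 of 37 (median -0.07), with the vesicle proteins Sv2b (-0.14) and Snap25 (-0.12) next to Homer1 by smallest p. Excitatory hippocampal neuron genes were negative in 14 of 20 (-0.07), with the smallest p for Neurod6 (-0.21, 7 of 7 AD libraries below the Ctrl mean) and the calcium buffer Calb1 (-0.18). Their summed value was 4868 to 5756 in AD and 5215 to 6173 in Ctrl. Heat shock and chaperone genes were negative in 21 of 25 (-0.08), with 7 lower at an unadjusted p under 0.05. Hspe1, the mitochondrial co-chaperonin, had 35.8, 45.6 and 48.5 in AD and 47.4, 49.7 and 54.5 in Ctrl (-0.20, SE 0.055, adjusted p = 0.255). Hsp90aa1 (-0.15), Stip1 (-0.15) and Dnaja1 (-0.14), which work together in the HSP90 cycle, had adjusted p = 0.467 to 0.475. Proteasome genes were negative in 26 of 31 (-0.05), with the smallest p for Psmc2 (-0.11), Psmd6 (-0.11) and Psmd8 (-0.11), and unfolded protein response genes in 16 of 19 (-0.05), with the smallest p for Atf4 (-0.15).

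Genes of tau and its processing were negative in 34 of 43 (-0.03). At an unadjusted p under 0.05, 3 were lower and 1 higher, beside 4.73% lower and 3.01% higher over protein-coding genes. Mapt, which encodes tau, had 443, 472 and 504 in AD and 441, 491 and 532 in Ctrl (-0.05, SE 0.042, adjusted p = 0.794). App had 1721 to 1922 in AD and 1787 to 1956 in Ctrl (-0.02, SE 0.036, adjusted p = 0.874). Subunits of protein phosphatase 2A, the main tau phosphatase, stood at -0.13 (Ppp2r2a, adjusted p = 0.285) and -0.09 (Ppp2ca, adjusted p = 0.508), each with 7 of 7 AD libraries below the Ctrl mean. Lrp1, a neuronal receptor for tau uptake, stood at 0.18 (adjusted p = 0.503). Lysosome and autophagy genes split evenly, 14 of 28 positive.

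**Figure D5:**
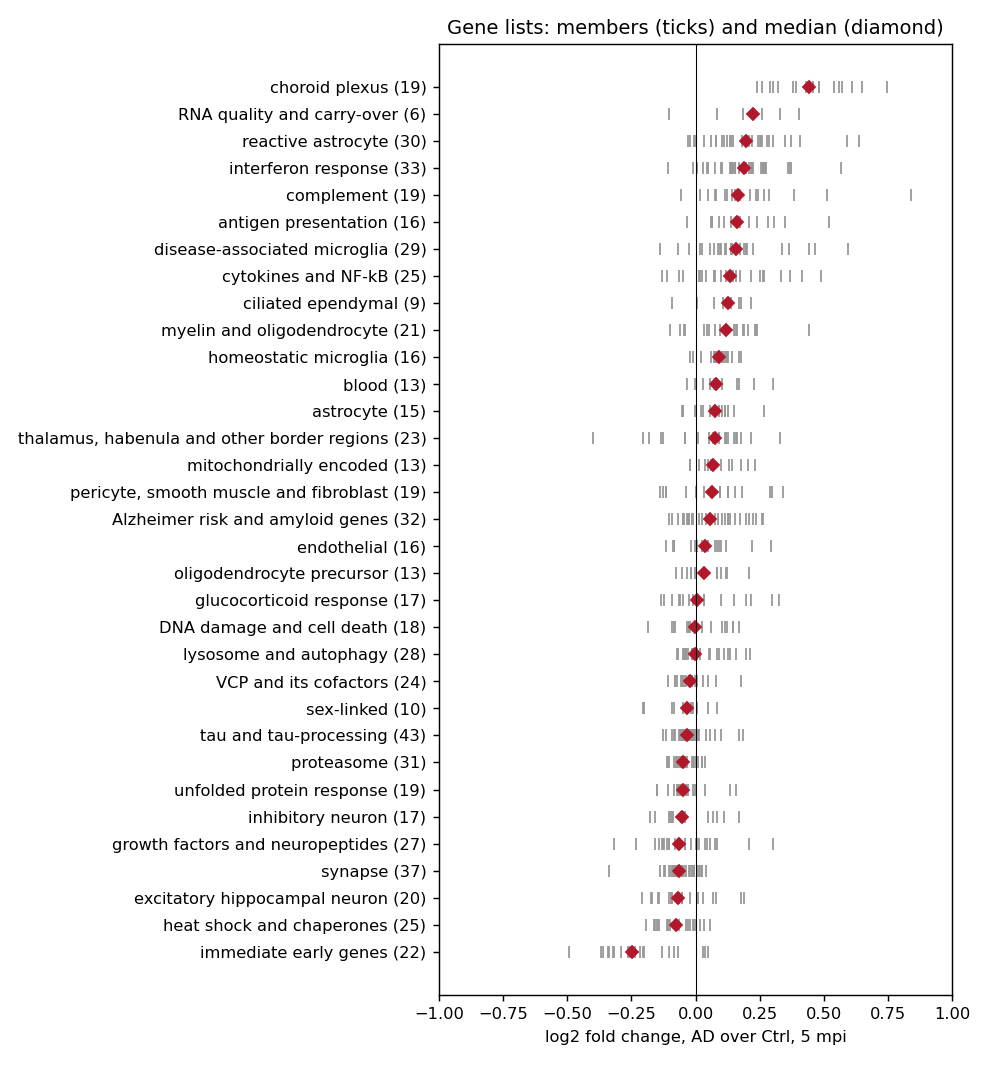
Log2 fold change (AD over Ctrl, 5 mpi) of the members of 33 gene lists (grey ticks) with the list median (diamond), lists ordered by median, number of genes tested in brackets. Choroid plexus genes lie highest (median 0.44), glial and immune lists above 0, immediate early genes lowest (-0.25), and no member passed the test.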

How the data were processed

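Libraries of poly(A) RNA were built with NEBNext reagents from randomly primed fragments, per the labels' protocols. The submitters' processing notes name STAR, Picard, edgeR and GRCm38. Tool versions, the counting rule, strand use and the handling of reads with several matches are not given there. What the authors deposited is a scaled signal per gene, that is, RPM over a factor for each library. Dividing by the value of 1 read gave whole reads for 100% of values (tolerance 0.01 reads, largest deviation 1.41e-04).

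The members, gene lists and tests were chosen with earlier results of these data known. Genes were kept by edgeR's filterByExpr on recovered reads (20084 of 55421), and limma-trend was fitted to log2(value + 1) over the 6 groups and 37 libraries of the 12mo table, with p-values adjusted by Benjamini-Hochberg (threshold 0.05). The test of 12mo against 3mo effects used reads of all 66 libraries scaled together with TMM (21297 genes). The fit was tested on simulated data. Within the AD and the Ctrl group at 5 mpi (12mo), every pair of libraries differed by more than counting noise (chi-square over degrees of freedom at least 8.08). Gene types, coordinates and transcripts were taken from GENCODE vM21 on GRCm38 (96.2% of symbols matched), and each processed pseudogene was matched with blastn to its best protein-coding transcript of a named gene. Reads of a gene and its near-identical copies, and of overlapping or antisense genes, may be mixed.

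Named were all called genes, the 12 positive and 12 negative genes of smallest p with a mean log2 level of at least 1 that are neither pseudogenes nor gene models, up to 4 members of smallest p in each list, 17 fixed genes and the genes that called pseudogenes match. Some results that this rule covers are not reported here. Alternatives were other scalings, filters, pseudocounts, covariates, a replicate block, each library left out, DESeq2 and edgeR's quasi-likelihood test on recovered reads. Added after seeing the data were protein-coding genes alone, splits by sex-linked expression and leaving out the libraries with raised Xist beside Y-linked genes. Software was blastn 2.17.0, sva 3.50.0, DESeq2 1.42.0, edgeR 4.0.16 and limma 3.58.1 under R 4.3.3.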

Additional observations from a re-analysis of the deposited data

Results flagged for a closer look

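The AD effect differed between high-Xist and high-Y libraries for 10 genes, by a test of the difference itself (limma, Benjamini-Hochberg adjusted over 20084 genes, a split made after seeing the data). The difference, high Xist minus high Y-linked on the log2 scale, was 1.15 for Gm11808, 1.34 for Gm10275, 0.97 for Gm15920, 1.39 for Eif4a-ps4 and 1.59 for Gm3724, of which the last 4 are processed pseudogenes. For the unprocessed pseudogenes Gm28439, Gm10925, Gm28437, Gm29216 and Gm28661 it was 0.90, 1.33, 1.21, 1.17 and 1.18. Adjusted p ran from 0.00015 (Eif4a-ps4) to 0.041 (Gm28439). The effect was positive in high-Xist libraries for all 10, from 0.68 to 1.24, and in high-Y libraries it was 0.09 for Gm11808 and between -0.54 and -0.08 for the other 9.

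The AD effect at 5 mpi also differed from that of earlier times. Against 1 mpi the difference was 0.52 for Gm1821 (SE 0.092, limma adjusted p = 0.0444). This call was lost under relative log expression scaling, with the replicate block, without the libraries with raised Xist beside Y-linked genes, and without any 1 of 9 libraries (AD 1, 2, 4 or 5, or Ctrl 1, 4, 5, 6 or 7). Against 3 mpi the difference was 0.77 for Gm13456 (SE 0.127, limma adjusted p = 0.0118), and 0 genes passed with the replicate block. Against the mean of both times, where the block also left 0 genes, it was 0.46 for Gm1821, 0.52 for Rpl14-ps1, 0.43 for Apoo-ps, 0.69 for Gm12715, 0.54 for Rpl34-ps1 and 0.66 for Gm13456.

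Single libraries stood far from the other 6 of their group in 7 of 100 groups examined, where chance flags about 5 percent. They were Txndc12 (27.0) and Zfp2 (25.28) in AD library 7, Apoe (1325) in AD library 1, Gm13910 (1.073) in Ctrl library 7, Rpp14 (33.66) in Ctrl library 6, C3 (16.52) in Ctrl library 3 and Cst7 (2.235) in Ctrl library 2.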

How the results depend on the processing

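The 11 calls at 5 mpi became 7 with no filter on low values, 5 with a mean of at least 1, 28 with DESeq2, 21 without the 2 libraries with raised Xist beside Y-linked genes, 84 in high-Xist and 0 in high-Y libraries, 0 with the 14 libraries alone and 0 among protein-coding genes. The high-Xist and high-Y counts took their spread from all 37 libraries. Each library left out in turn gave 6 to 23. Other scalings, the smaller pseudocount, covariates, 1 surrogate variable, a robust spread and edgeR gave 8 to 13. With a replicate block 1 gene passed, and 0 with the block in the 14 libraries. The labels give equal numbers no shared source, and correlations of same-numbered libraries ran from -0.378 to 0.289, with 4 of 7 over 0.1, so the fits without the block are the ones reported. As a hint from the data, 4 of 7 AD libraries correlated best with their own number.

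The 1 call against 1 mpi became 0 under relative log expression scaling, the replicate block and without the raised-Xist libraries, 3 with edgeR and 5 with DESeq2 (0 to 3 over left-out libraries). Against 3 mpi the 1 call became 0 with the block, 2 with edgeR, 8 with DESeq2 and 2 without the raised-Xist libraries (1 to 2 over left-out libraries). Against both times the 6 became 0 with the block, 15 with DESeq2 and 10 without the raised-Xist libraries (2 to 13 over left-out libraries). The 12mo minus 3mo test went to 10 with DESeq2. The median of processed pseudogenes, 0.065, was 0 with no filter, 0.082 in high-Xist and 0.032 in high-Y libraries, and 0.062 to 0.073 over left-out libraries. The cause was not tested for any of these. In high-Y libraries alone the medians of unprocessed pseudogenes (-0.007), lincRNAs (-0.006) and protein-coding genes (0.001) had the opposite sign to those over all 14 libraries.

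Depth limits the pseudogenes most, as several called ones hold under 100 reads in a library, and the counting of reads shared with the matching gene is not known.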

Other observations

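Immunoglobulin genes, the products of B cells and plasma cells, leaned to higher values: 72 of 92 tested were positive (median log2 fold change 0.17), with 11 higher and 2 lower at an unadjusted p under 0.05 and 0 passing by limma. Their summed value was 44.1 to 554 in AD and 53.8 to 305 in Ctrl libraries. DESeq2 called Ighg2c higher and Igkv16-104 lower.

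In the high-Xist contrast, with its spread from all 37 libraries, 18 protein-coding genes passed on the higher and 6 on the lower side. Those named here were chosen after their values were seen. Etnppl, an astrocyte enzyme of phosphoethanolamine breakdown, had 1.25 on the log2 scale, and Hmgb2, a chromatin protein of dividing cells, had 1.00. Their values in high-Y libraries were 0.01 and 0.11. The transcription factors Lhx2 and Nr2f1 had -0.34 and -0.28 in high-Xist libraries, against -0.07 and 0.15 in high-Y libraries. The difference between high-Xist and high-Y effects passed for none of these 4 genes.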
